A study of Mus musculus with 12 samples.

Results

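The 7 genes described here encode membrane carriers of nucleosides, vitamins and small organic ions: Slc28a1, Slc28a2, Slc29a1, Slc19a1, Slc19a2, Slc22a5 and Slc22a7. They were taken as a named list of 7 among the 24062 genes counted in mouse liver, and they were chosen by their names and with the difference in CPM between the diets, given below, already in view. All 7 were among the 12481 genes that reached 1 CPM (the usual depth-scaled read count) in at least 2 of 12 libraries, although Slc28a1 did so only through the treated mice. The study asked what BIBB-515, an inhibitor of 2,3-oxidosqualene cyclase (Lss, a late enzyme of cholesterol synthesis), does to the liver when given in food. Female C57BL/6J mice, 6 weeks old on arrival, were acclimated for 2 weeks and kept on the control diet for 3 days before the start. They then ate either the control diet or the matched diet with BIBB-515 at 55 mg/kg, and RNA from the livers of 6 mice per diet was sequenced, with no genetic modification in either group. In whole-liver RNA, fewer cells of a type and less RNA per cell cannot be told apart.

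Nucleosides are too polar to cross membranes unaided and enter cells through 2 carrier families. The Slc28 (concentrative) carriers pull them in against a gradient with sodium, and the Slc29 (equilibrative) carriers let them pass down a gradient in either direction. In the liver this traffic serves the salvage of purines and pyrimidines and carries nucleoside drugs into hepatocytes. The Slc19 family moves B vitamins: Slc19a1 is the reduced folate carrier and Slc19a2 a thiamine carrier. The Slc22 family holds the organic ion carriers: Slc22a5 (Octn2) brings in carnitine and organic cations, whereas Slc22a7 (Oat2) is known as an organic anion carrier. Between these Slc22 members, the description as organic cation carriers applies to Slc22a5 alone.

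Promoter windows of 250 bases before the annotated start (RefSeq, build GRCm38.p6) were found for 6 of the 7 genes, at 14 starts, and Slc22a7 was not among them. The windows of the sodium-coupled nucleoside carriers Slc28a1 (chr7:81114549-81114798, plus strand) and Slc28a2 (chr2:122426185-122426434, plus strand) are shown because these close relatives differed in the diet comparison. The window before the second start of Slc19a1 (chr10:77032962-77033211, plus strand) is shown because that gene differed between the diets too, and this window, unlike that at its other start, holds no annotated exon. Each reads 5′ to 3′, and capitals mark matches, on either strand, to the nuclear receptor motif AGGTCA or its variant AGTTCA, the antioxidant response element core TGACNNNGC, the E-box CACGTG, the TATA box TATAAA or the CCAAT box.
Slc28a1: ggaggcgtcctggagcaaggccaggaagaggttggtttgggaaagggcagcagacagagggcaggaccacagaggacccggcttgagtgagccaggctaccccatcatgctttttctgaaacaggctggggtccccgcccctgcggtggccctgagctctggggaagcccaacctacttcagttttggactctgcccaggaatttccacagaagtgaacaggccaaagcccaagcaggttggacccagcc
Slc28a2: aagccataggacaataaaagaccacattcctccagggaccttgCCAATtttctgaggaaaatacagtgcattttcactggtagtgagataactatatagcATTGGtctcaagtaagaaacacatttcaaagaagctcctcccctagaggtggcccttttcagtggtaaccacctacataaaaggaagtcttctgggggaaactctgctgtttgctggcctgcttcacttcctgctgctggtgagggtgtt
Slc19a1: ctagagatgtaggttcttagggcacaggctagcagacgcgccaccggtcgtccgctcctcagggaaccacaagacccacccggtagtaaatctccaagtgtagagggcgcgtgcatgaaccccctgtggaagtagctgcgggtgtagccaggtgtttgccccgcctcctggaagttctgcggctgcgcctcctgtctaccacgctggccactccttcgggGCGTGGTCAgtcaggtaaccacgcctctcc
The Slc28a1 window held none of the 6 motifs and had 60.4% G and C with 4 CpG dinucleotides. The Slc28a2 window had 45.2% G and C, no CpG, and CCAAT matches starting 207 and 150 bases before the start. The Slc19a1 window had 62% G and C, 16 CpG and a match to TGACNNNGC 30 bases before the start. The window at the other start of Slc19a1 had the same G and C and CpG content and held none of the motifs, and TGACNNNGC also occurred at 2 starts of Slc29a1, a gene not called between the diets. Over 32851 windows of the same length from all genes, the median was 52.4% G and C with 6 CpG. CCAAT occurred in 33.8% of those windows, TGACNNNGC in 10.2%, AGGTCA in 14.0%, AGTTCA in 11.8%, CACGTG in 6.02% and TATAAA in 12.4%. The nuclear receptor motif AGGTCA, whose reverse complement can overlap TGACNNNGC, was found among the 14 starts only at 2 of the 8 starts of Slc29a1. The most CpG-rich of the single-start genes were Slc22a5 (73.6% G and C, 30 CpG) and Slc19a2 (73.2% G and C, 23 CpG).

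The libraries held 22764819 to 31058370 reads on genes. The diets separated on the principal component with the most variance (35.8%). With edgeR's quasi-likelihood test at a Benjamini-Hochberg false discovery rate (FDR) under 0.05, 1705 of 12481 genes differed between the diets (13.7%), with 896 above their control level (7.18%) and 809 below it (6.48%). The groups did not overlap in CPM for 882 genes (7.07%). Hepatocyte markers were strong in all livers, with 5 of 5 tested and a summed level of 135771 to 154521 CPM in control mice and 102815 to 117929 CPM with BIBB-515. Albumin (Alb) and transthyretin (Ttr) were the 2 of these markers that fell, and the part of this shift in the transporter values was not tested. The summed markers of 6 other liver, blood and fat cell types overlapped between diets, with 1 stellate cell marker lower and 1 fat cell marker at 0 in every library, and the kidney tubule markers had 0 CPM in control mice and at most 0.0408 CPM with BIBB-515. Of the 7 transporters, Slc28a1 and Slc19a1 were called higher, Slc22a7 was called lower, and 4 were not called; because the list was chosen with this comparison in view, nothing is read from that count and the values are given below as a description.

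Slc28a1 (chromosome 7, 81114799 to 81170416, plus strand, mm10) encodes Cnt1, the sodium-coupled carrier that prefers pyrimidine nucleosides. In control livers it was near the limit of detection, with a lowest, median and highest level of 0.0467, 0.0806 and 0.271 CPM. With BIBB-515 the same 3 values were 0.729, 1.37 and 2.46 CPM, so that the lowest treated mouse lay above the highest control mouse. The levels rested on 1, 2, 2, 2, 3 and 7 reads in the control libraries and on 18, 31, 35, 46, 60 and 69 reads in the treated ones. The mean was 0.114 ± 0.0817 CPM (SD, n = 6) in control mice and 1.51 ± 0.592 CPM (SD, n = 6) with BIBB-515, a log2 fold change of 3.67 (SE 0.39). As sums over each diet, 17 against 259 reads gave a depth-scaled ratio of 13.4, with an exact 95% interval from 8.18 to 23.3 that covers counting error only. No control library and 5 of 6 treated libraries reached 1 CPM, and without the control mouse with 7 reads (control mouse 1) the log2 fold change was 4.13.

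The few control reads of Slc28a1 covered fewer of its exons than the treated reads. In the exon-level counts, a read that crosses a splice junction is counted once for every exon it touches. The treated libraries had reads in all 18 exons, whereas the control libraries had reads in 5 of them, namely exons 11, 12, 13, 14 and 18. Exons 1 to 10, which hold the start codon in exon 2, collected 0 control and 135 treated exon hits, the latter spread over 11 to 41 per library. This stretch was marked off by its lack of control hits, so no fold or test is given for it. Exons 11 to 14 held 13 control hits, found in 6 of 6 control libraries, and 81 treated hits. The 17 control reads gave 17 exon hits, so none was counted for more than 1 exon, while 259 treated reads gave 368 hits, or 1.42 per read. Slc28a2, with 164 control and 171 treated reads, had 1.51 hits per read in control mice and 1.61 with BIBB-515. With 17 reads in all, whether the control reads came from the full-length transcript was not tested.

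**Figure D1:**
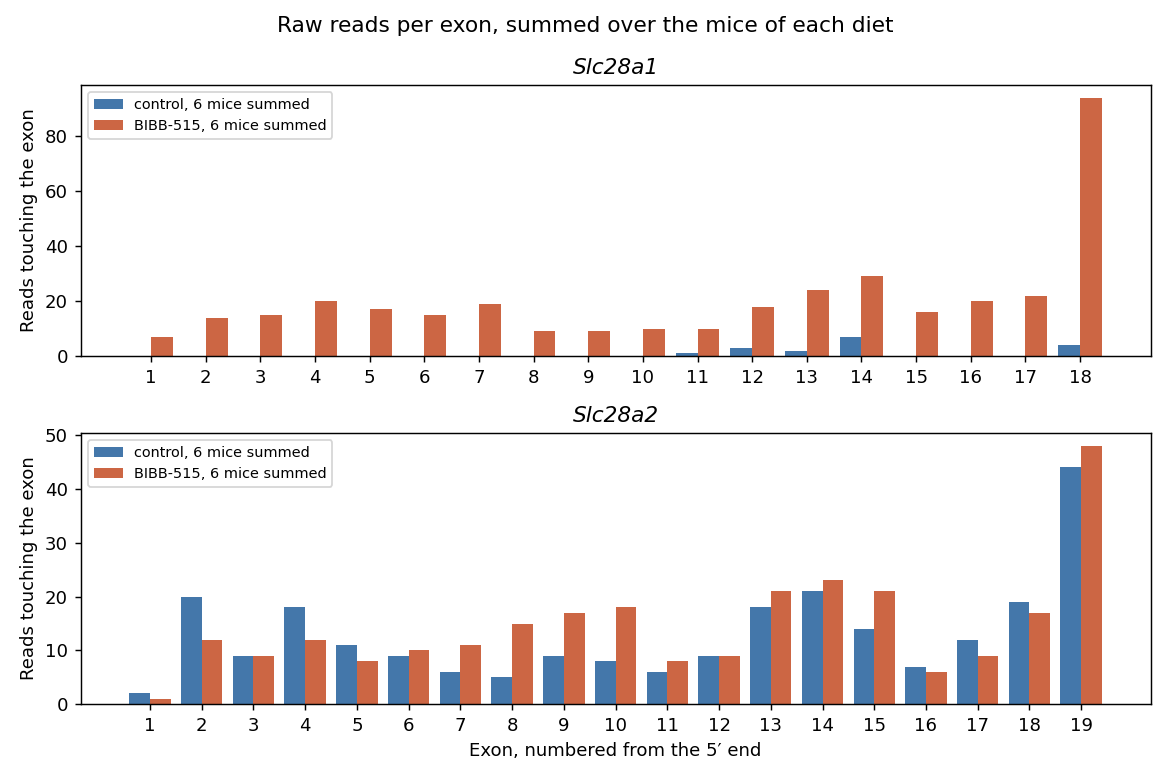
Raw reads touching each exon (y axis, a read counted at every exon it touches) of Slc28a1 (top) and Slc28a2 (bottom), exons numbered from the 5′ end on the x axis, summed over the 6 mice of each diet. Control reads of Slc28a1 appear in exons 11 to 14 and 18 alone, treated reads in all 18 exons, and both diets have reads in all 19 exon entries of Slc28a2.

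Slc28a2 (chromosome 2, 122426477 to 122461130, plus strand) encodes Cnt2, the sodium-coupled carrier that prefers purine nucleosides. Its lowest, median and highest levels were 0.700, 1.03 and 1.57 CPM in control mice and 0.653, 1.03 and 1.30 CPM with BIBB-515. The groups overlapped almost wholly, and the medians were the same to 3 digits. The log2 fold change was -0.14 (SE 0.24), from 1.12 ± 0.363 to 1.01 ± 0.273 CPM (SD, n = 6 each). Of the 50-base words of its transcripts, 35.4% also occur in transcripts of the near-copy Gm14085, and reads that map to several places were not counted, so the level is uncertain. Gm14085 itself had 0 to 3 reads per library and was not tested.

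Slc29a1 (chromosome 17, 45585200 to 45599603, minus strand) encodes Ent1, the main equilibrative nucleoside carrier of the plasma membrane, and had the highest level of the 7 genes. The lowest, median and highest levels were 298, 341 and 393 CPM in control mice and 286, 310 and 356 CPM with BIBB-515. The treated mice sat somewhat lower, but the ranges overlapped over most of their width. The means of 342 ± 38.0 and 316 ± 28.1 CPM (SD, n = 6 each) gave a log2 fold change of -0.11 (SE 0.08). Of its 19 exon entries, 18 had a lower value with BIBB-515. The exception was the outermost start exon (45599473 to 45599603), with 321 control and 437 treated reads and a log2 ratio of 0.25, at which the groups overlapped.

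Slc19a1 (chromosome 10, 77032739 to 77050432, plus strand), the reduced folate carrier, was higher in treated mice. Its lowest, median and highest levels were 7.57, 8.49 and 11.1 CPM in control mice and 11.0, 14.6 and 19.9 CPM with BIBB-515. Treated mouse 8, the lowest of its group, lay just under the highest control mouse, and the other 5 treated mice lay above every control. The means were 9.06 ± 1.57 and 15.0 ± 2.96 CPM (SD, n = 6 each), a 1.65-fold difference or 0.72 (SE 0.14) on the log2 scale. All 7 exon entries had higher mean values with BIBB-515, with log2 ratios of 0.58 to 1.53 and a median of 0.78. The groups did not overlap at 1 of the 7. The highest ratios, 1.53 and 1.07, were those of the alternative start exons. Both alternative start exons had few reads, 3 against 9 and 7 against 16, so use of the start behind the printed window could not be compared.

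Slc19a2 (chromosome 1, 164249046 to 164265385, plus strand), the thiamine carrier of the same family, was at like levels on both diets. The lowest, median and highest levels were 116, 125 and 152 CPM in control mice and 115, 125 and 143 CPM with BIBB-515. The groups overlapped throughout. The means of 129 ± 12.7 and 127 ± 9.31 CPM (SD, n = 6 each) gave a log2 fold change of -0.02 (SE 0.07).

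Slc22a5 (chromosome 11, 53864542 to 53891703, minus strand) is the carnitine carrier on which fatty acid oxidation depends. Its lowest, median and highest levels were 23.9, 42.9 and 63.7 CPM in control mice and 38.0, 41.2 and 50.6 CPM with BIBB-515. Every treated value lay inside the control range, and the 6 control mice fell into 3 between 23.9 and 32.9 CPM and 3 between 53.0 and 63.7 CPM. The means were both 43.5 CPM, with an SD of 16.1 in control mice and 5.31 with BIBB-515 (n = 6 each), for a log2 fold change of 0.00 (SE 0.20). The coefficient of variation was 37.1% in control mice and 12.2% with BIBB-515, and the difference in spread was not tested. Of its 50-base words, 26.3% are shared with transcripts of Slc22a21, Slc22a4 or Gm12220, so reads from those stretches could be missing from its counts.

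Slc22a7 (chromosome 17, 46432185 to 46438477, minus strand), the organic anion carrier, was the member that was lower with BIBB-515. Its lowest, median and highest levels were 26.6, 43.3 and 61.3 CPM in control mice and 12.0, 17.6 and 22.7 CPM with BIBB-515. No treated mouse reached the lowest control mouse. The means of 42.3 ± 12.6 and 17.9 ± 3.95 CPM (SD, n = 6 each) differed 2.36-fold, with a log2 fold change of -1.24 (SE 0.19). All 10 exons had lower values, with log2 ratios from -1.31 to -1.10 and a median of -1.25. No exon of any of the 7 genes overlaps an exon of another gene in the annotation, and Slc28a1, Slc19a1, Slc19a2 and Slc22a7 share no 50-base word with other genes' transcripts.

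**Figure D2:**
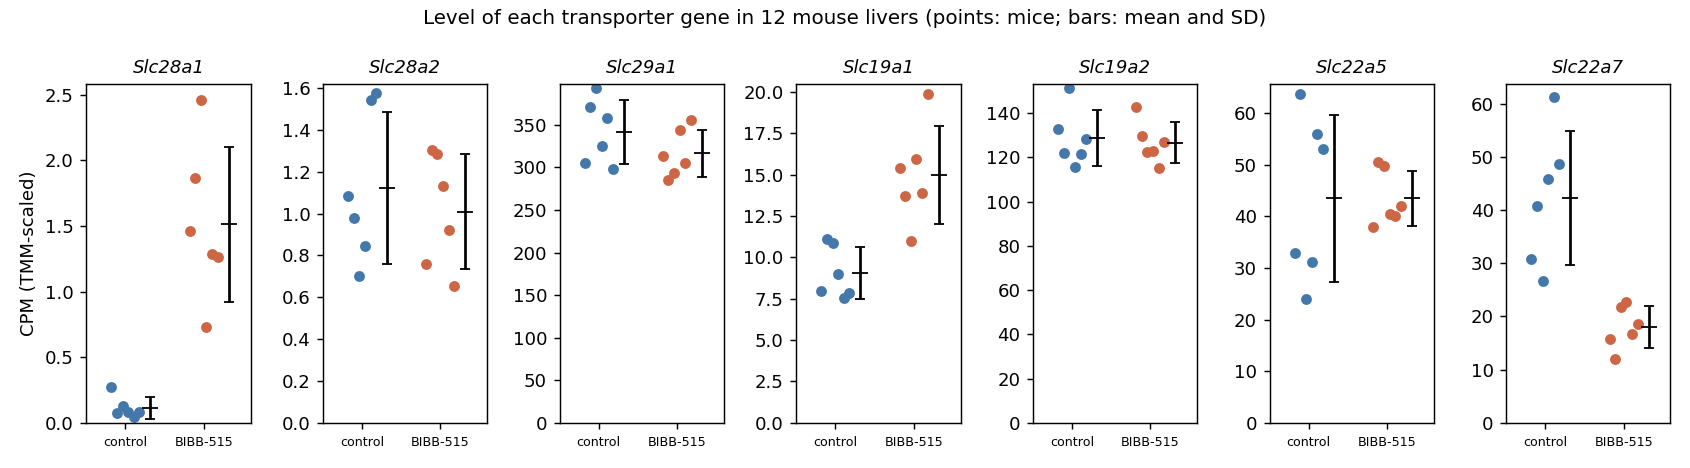
Level of each of the 7 genes in CPM (y axis, 1 scale per gene, from 0) in the 6 control and 6 BIBB-515 mice, with points for mice and bars for the mean and SD. The diets do not overlap for Slc28a1 and Slc22a7, 5 of 6 treated mice exceed all controls for Slc19a1, and the control mice spread more widely than the treated ones for Slc22a5.

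Per length of exon, the 7 genes covered more than 3 orders of magnitude in control liver, from 138 ± 15.4 CPM per kb for Slc29a1 to 0.0400 ± 0.0287 CPM per kb for Slc28a1 (SD, n = 6). Between them came Slc19a2 (36.0 ± 3.56 CPM per kb), Slc22a7 (21.1 ± 6.27), Slc22a5 (14.0 ± 5.20), Slc19a1 (3.79 ± 0.657) and Slc28a2 (0.287 ± 0.0930). Among the tested genes, 95.8% had a lower control level per kb than Slc29a1, 40.7% than Slc19a1 and 2.85% than Slc28a2. Each neighbouring pair in this order was compared within the 6 control mice on the log2 scale of CPM per kb, with 0.5 CPM added, by a two-sided exact sign-flip permutation test adjusted over 6 pairs. Leaving aside Slc28a2 over Slc28a1, the higher gene was higher in 6 of 6 mice for 4 pairs. Their adjusted p was 0.0375 in the exact test, from the smallest raw p that 6 mice allow (0.03125). These differences were 1.93 (SD 0.17) for Slc29a1 over Slc19a2, 0.81 (SD 0.55) for Slc19a2 over Slc22a7, 1.75 (SD 0.65) for Slc22a5 over Slc19a1 and 3.28 (SD 0.52) for Slc19a1 over Slc28a2. For Slc28a2 over Slc28a1 the difference was 0.92 (SD 0.41), likewise higher in 6 of 6 mice, a value that the added 0.5 CPM makes smaller. No p is given for this pair, since Slc28a1 passed the filter only through the treated mice. Its p was still 1 of the 6 adjusted together, so the adjusted p-values of the other pairs depend partly on it. The anion carrier Slc22a7 and the carnitine carrier Slc22a5 did not pass, with a difference of 0.62 (SD 0.39) in log2 level, higher in 5 of 6 mice, and an adjusted p of 0.0625 in the exact test. With BIBB-515 the order of 2 pairs was the other way round, given as a description: Slc22a5 at 14.0 ± 1.71 over Slc22a7 at 8.93 ± 1.97 CPM per kb, and Slc28a1 at 0.531 ± 0.208 over Slc28a2 at 0.259 ± 0.0700 CPM per kb.

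**Figure D3:**
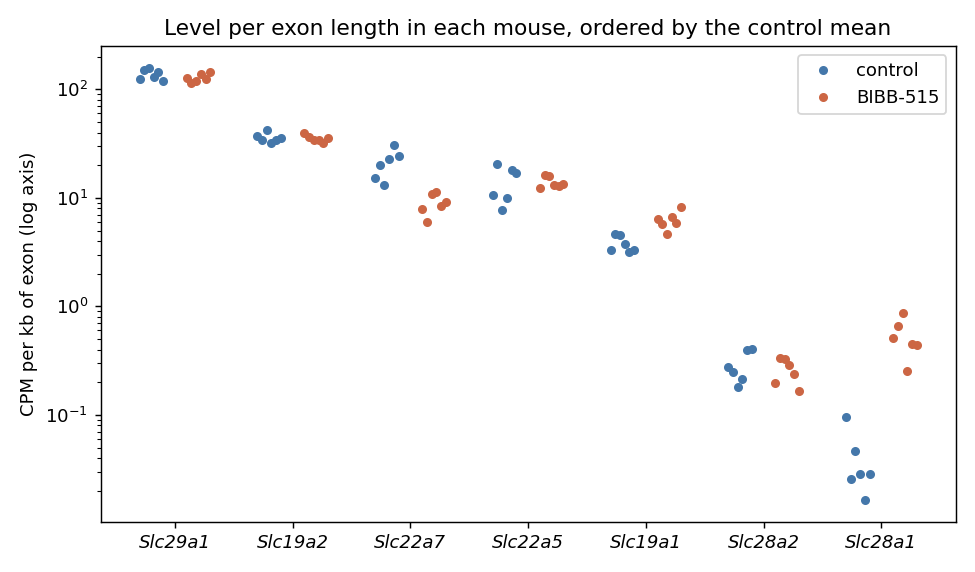
CPM per kb of exon (log y axis) for each mouse, genes ordered on the x axis by their control mean, from Slc29a1 at 138 to Slc28a1 at 0.0400. In control mice Slc22a7 (mean 21.1) lies above Slc22a5 (mean 14.0) in 5 of 6 mice. With BIBB-515 Slc22a5 lies above Slc22a7, and the mean of Slc28a1 lies above that of Slc28a2.

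The genes also varied among mice of the same diet. Over the 12 libraries, after the diet means of log2 CPM were subtracted, the folate carrier Slc19a1 moved with the nucleoside carrier Slc29a1 (Pearson r = 0.77, 0.72 within the control and 0.86 within the treated mice) and opposite to Slc28a2 (r = -0.77, -0.79 and -0.77). Slc22a5 and Slc22a7 had r = 0.51 over all mice, but 0.71 among the controls and -0.23 among the treated. These are descriptions over libraries that share a scaling factor each, and the low counts of Slc28a1 and Slc28a2 add sampling noise to theirs. The gene whose pattern was most like each member, of about 9976 compared, was Efna5 for Slc22a5 (r = 0.97), Igfbp1 for Slc19a1 (r = 0.96), Paqr7 for Slc28a2 (r = 0.96), Acot7 for Slc29a1 (r = 0.93), Ypel3 for Slc22a7 (r = 0.92), Smurf1 for Slc19a2 (r = 0.91) and Mfsd8 for Slc28a1 (r = 0.84), each over 12 libraries. Each r is the highest of all those compared and describes only the spread among mice of a diet. Between the diets the log2 fold change was -0.51 for Igfbp1 against 0.72 for Slc19a1, and -0.02 for Mfsd8 against 3.67 for Slc28a1.

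Around the carriers stand the enzymes that use what they bring in, and 5 lists of such genes, none holding a member, were compared between the diets. Over the lists, 71 of 92 genes were tested and 10 were called (14.1%, against 13.7% of all tested genes), 8 higher and 2 lower, with a median log2 fold change of 0.01 against -0.01 for all genes. The untested genes had few reads, at most 33 in any library, among them the sodium-coupled nucleoside carrier Slc28a3, the folate receptor Folr1, the thiamine carrier Slc19a3 and the kidney carriers Slc22a6 and Slc22a8.

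Among nucleoside-handling genes, 2 of 24 tested were called, both higher, and the list's median log2 fold change was 0.00. Aprt, which salvages adenine into AMP, rose from 29.7 ± 3.05 to 50.5 ± 4.45 CPM (SD, n = 6 each), with 6 of 6 treated mice above all controls (log2 fold change 0.77, SE 0.08, adjusted p = 2.44e-05, edgeR's quasi-likelihood test with Benjamini-Hochberg adjustment). Upb1, which completes pyrimidine breakdown to beta-alanine, rose from 289 ± 18.9 to 372 ± 21.5 CPM, again in 6 of 6 mice (log2 fold change 0.36, SE 0.07, adjusted p = 0.00243, edgeR). Without control mouse 2 or control mouse 5, 4 genes of this list were called in place of 2, and without control mouse 6 or treated mouse 11 the count was 3.

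Among folate-handling genes, 5 of 20 were called, 3 higher and 2 lower. Shmt2, the mitochondrial serine hydroxymethyltransferase, rose from 225 ± 13.2 to 302 ± 9.23 CPM in 6 of 6 mice (SD, n = 6 each, log2 fold change 0.43, SE 0.06, adjusted p = 0.00031, edgeR). Ggh, which trims the glutamate tail of folates, fell from 11.6 ± 0.669 to 8.75 ± 0.525 CPM, with 6 of 6 treated mice under all controls (log2 fold change -0.41, SE 0.07, adjusted p = 0.00122, edgeR). Also called, and named here after their values were seen, were Ftcd (log2 fold change 0.22, SE 0.07, adjusted p = 0.0462, edgeR) and Atic (log2 fold change 0.29, SE 0.08, adjusted p = 0.0318, edgeR). The count for this list hung on single mice: 3 genes were called without control mouse 4 or 5 or treated mouse 6, 9 or 11, and 2 without control mouse 6 or treated mouse 7, 8 or 10.

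Of 6 thiamine-handling genes tested, 0 were called by edgeR, DESeq2 or limma-voom. At an unadjusted p under 0.05 there was 1, the pentose phosphate enzyme Tkt (log2 fold change 0.36, SE 0.15), and without control mouse 3 there were 2 called genes. Of 10 carnitine-handling genes, 1 was called: Slc22a4, the ergothioneine and carnitine carrier that shares sequence with Slc22a5, rose from 3.41 ± 0.543 to 5.50 ± 0.605 CPM in 6 of 6 mice (SD, n = 6 each, log2 fold change 0.69, SE 0.12, adjusted p = 0.00194, edgeR). Of 11 tested among the other Slc22 and Slc47 carriers, 2 were called, both higher, while the list's median log2 fold change was -0.10. Slc22a18, an organic cation carrier of an imprinted region, rose from 92.7 ± 8.96 to 129 ± 9.68 CPM in 6 of 6 mice (log2 fold change 0.48, SE 0.07, adjusted p = 0.000789, edgeR). Slc22a15 rose from 6.96 ± 0.675 to 9.28 ± 1.24 CPM, with 5 of 6 treated mice above all controls (log2 fold change 0.42, SE 0.10, adjusted p = 0.0128, edgeR). Without control mouse 1, 3 genes of this last list were called.

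**Figure D4:**
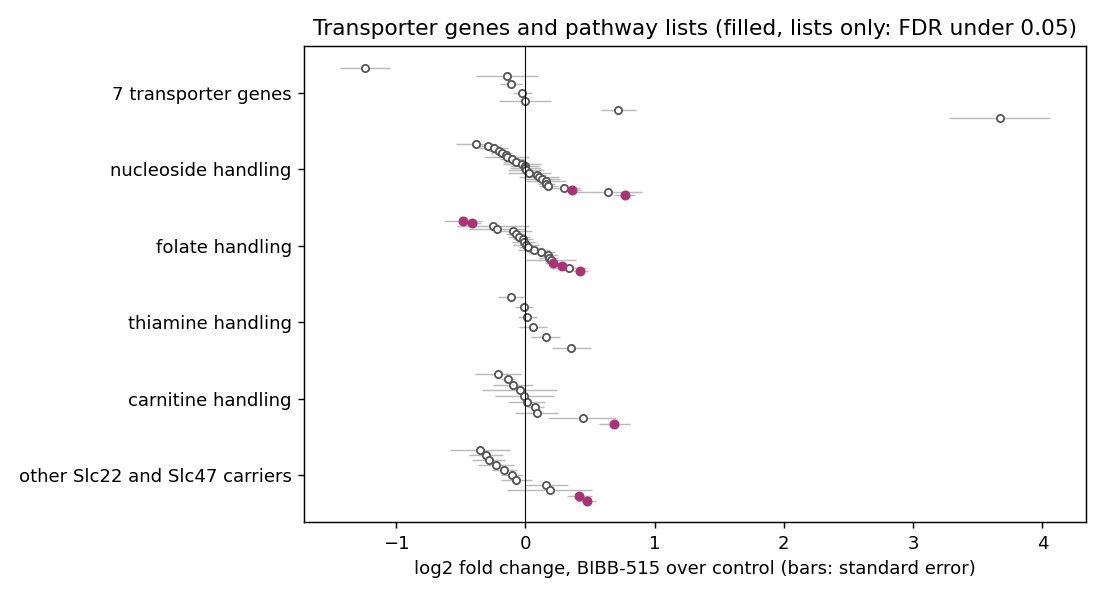
Log2 fold change of BIBB-515 over control (x axis, bars for the standard error) for the 7 transporter genes and the tested genes of each list (rows), with list genes at FDR under 0.05 filled. Most list genes lie between -0.5 and 0.5, and Slc28a1 (3.67) and Slc22a7 (-1.24) lie outside the range of every list. The 7 genes were chosen with this difference in view, so nothing is read from that. Slc19a1 (0.72), also called, lies below the list gene Aprt (0.77).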

How the data were processed

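Liver RNA was sequenced from 6 mice per diet. The authors aligned reads to mm10 with STAR 2.5.3a (per the submitters' notes), and counted them per gene and per exon with featureCounts 1.6.3 (Subread) against the UCSC annotation, per the file headers. The deposited values are raw read counts, and reads mapped to several places or genes were left out of them. No strand option was set. Tables restricted to primary alignments served as an alternative, and the transcript-level tables were not used here.

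Counts were scaled by TMM to CPM and tested with edgeR 4.0.16 (R 4.3.3, quasi-likelihood F-test) on genes at 1 CPM or more in at least 10% of libraries (2 of 12), with Benjamini-Hochberg adjustment over all of them and no covariate. Log2 CPM values of single mice outside the fit had 0.5 CPM added. The log2 ratios of exons were taken between group means of CPM with nothing added. Replicates of a diet differed by more than counting noise (lowest chi-square per degree of freedom 12.1). The scripts were tested on simulated data. Promoter windows came from RefSeq.

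The 7 genes, the pathway lists and the tests were chosen with earlier results of these data known. For that reason the log2 fold changes of the 7 are given without p-values, and their calls are not read as tests. Named list genes were, within each list, the at most 3 with the largest absolute log2 fold change among those called at an average log2 CPM of 1 or more. A gene that this rule names is not reported here. The likest gene was sought among genes at an average log2 CPM of 2 or more. Alternatives were DESeq2 1.42.0, limma-voom (limma 3.58.1), upper-quartile scaling, no filter, 1 CPM in at least 6 libraries, 1 surrogate variable (sva 3.50.0), and leaving out each mouse.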

Additional observations from a re-analysis of the deposited data

Results flagged for a closer look

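Values of 46 groups of 6 mice were examined for a single mouse standing apart. The measure was the gap to its nearest neighbour divided by the spread from lowest to highest. The groups were the total reads on genes, the 7 transporters, the list genes named by the stated rule and the likest genes, on each diet. At the level used, chance alone flags about 1 group in 20, and 2 groups were found. Shmt2 was lowest in control mouse 6, at 199 CPM against 226 CPM for the next mouse, a gap share of 0.741. Smurf1, the gene most like Slc19a2 across libraries, was highest in control mouse 3, at 24.0 CPM against 20.7 CPM, a gap share of 0.691. Of the 7 transporters the nearest was Slc28a1 in control mouse 1, the highest of its group, with a gap share of 0.623, just under the level used. The log2 fold change of Slc28a1 was 3.67 with that mouse and 4.13 without it.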

How the results depend on the processing

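The values of the 7 transporters are descriptions under every setting, since the genes were chosen with the diet difference in view. With 1 CPM required in at least 6 libraries, Slc28a1 (5 libraries) was not tested. The list genes named as called, apart from Ftcd and Atic, which were not followed, were refitted under each alternative, and none of those reversed. DESeq2 called 3 nucleoside and 2 carnitine genes (2 and 1 in the reported fit). With 1 surrogate variable, 4 nucleoside, 6 folate, 1 thiamine and 3 other carrier genes were called (2, 5, 0 and 2 reported). The folate count was 4 with limma-voom and with no filter. The nucleoside count was 3 with 1 CPM required in at least 6 libraries. The cause was not tested. Leaving out each mouse in turn, the 7 genes gave 3 calls each time, from which nothing is read, and all tested genes 1199 to 1865 calls, the lists together 7 to 12, nucleoside genes 2 to 4, folate 2 to 5, thiamine 0 to 2, carnitine 1 each time and other carriers 2 to 3. The log2 fold changes then ranged from 3.48 to 4.13 for Slc28a1, 0.62 to 0.80 for Slc19a1, -1.33 to -1.10 for Slc22a7, -0.23 to -0.01 for Slc28a2, -0.15 to -0.06 for Slc29a1, -0.06 to 0.04 for Slc19a2 and -0.11 to 0.14 for Slc22a5, so the last pair have no direction. With 5 control mice, the neighbour differences in log2 level per kb stayed positive, but the exact test could then not pass. No paired analysis was made, because the control and BIBB-515 mice are different animals. The replicate number 6 occurs on both diets, but the labels do not give it as a pair. Depth limits Slc28a1 in control liver, at 1 to 7 reads per library.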
